A study of Mus musculus with 12 samples.

Results

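Extracellular matrix and fibrogenesis genes were followed as a group of 36 protein-coding genes, chosen by symbol, and all 36 were found once among the 55450 genes measured. By role they were 5 fibrillar collagens, 6 basement membrane collagens and laminins, 5 genes for collagen VI and matrix glycoproteins, 3 tissue inhibitors of metalloproteinases, 4 matrix metalloproteinases, 3 lysyl oxidases, 6 TGF-beta and PDGF signals, and 4 genes of the mesenchymal cytoskeleton and the galectins. Poly(A) RNA was measured in 12 libraries labelled as primary mouse hepatocytes, 3 in each of 4 groups. WT hepatocytes had the genotype Cebpafl/fl, in which both Cebpa alleles are floxed. KO hepatocytes had the genotype Cebpa{delta}Alb, in which the floxed alleles are deleted by a Cre driven by the albumin promoter and thus in cells that make albumin. GFP hepatocytes were given Ad-GFP, an adenovirus for green fluorescent protein, and OE hepatocytes Ad-m-Cebpa (Overexpression), an adenovirus for mouse Cebpa. The labels give no genotype of the cells that received virus, no age and no time after infection. They number the replicates 1 to 3 as biological but name no animal or culture, so that the p values measure the spread between these libraries, which may be technical.

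The extracellular matrix of the liver is thin in health, with a sparse basement membrane-like layer in the space between hepatocytes and the sinusoid. In fibrosis, fibrillar collagens I and III replace it, and activated stellate cells and portal fibroblasts are their main makers. TGF-beta starts this program through its type I and type II receptors, PDGF drives stellate cell growth, lysyl oxidases crosslink the fibers, metalloproteinases cut them, and TIMPs block the metalloproteinases. Hepatocytes add fibronectin and collagen XVIII of their own, and hepatocytes that are cultured or injured turn on vimentin, galectins and other genes of mesenchymal cells. Cebpa encodes a basic leucine zipper factor that keeps hepatocytes mature.

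The summed counts were 20160081 to 23304230 per library. Cebpa, the check of the labels, was 123 to 175 TPM (transcript abundance scaled for gene length and depth) in WT, 0.0900 to 0.540 TPM in KO, 29.3 to 33.7 TPM in GFP and 9924 to 10730 TPM in OE. Hepatocyte markers were present in every group, with Alb at a mean of 54550 TPM in WT, 69910 TPM in KO, 14080 TPM in GFP and 7532 TPM in OE. Of 15 stellate cell and fibroblast markers 1 or 2 reached a mean of 1 TPM in any group, and the defining markers Lrat, Des and Pdgfrb were at most 0.240 TPM in all 12 libraries, while Dcn had a mean of 1.31 TPM in WT and 8.24 TPM in OE and Pdgfra a mean of 0.0633 TPM in WT and 7.40 TPM in OE. The libraries of WT and KO varied more than those of GFP and OE, with a biological coefficient of variation (the spread between replicates beyond counting error) of 20.4% in the fit of WT and KO and 4.04% in that of GFP and OE. KO3 stood apart from KO1 and KO2 in markers of endothelial cells and macrophages, as given beside the results that this touches.

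In WT hepatocytes, the matrix genes were led by Fn1, which encodes fibronectin, a glycoprotein that links cells to collagen, at 389 ± 38.5 TPM (SD, n = 3), and by Col18a1, the basement membrane collagen that yields endostatin, at 337 ± 13.8 TPM. The Fn1 values in the libraries WT1, WT2 and WT3 were 367, 366 and 434 TPM and lay above those of Col18a1, 324, 336 and 352 TPM. The next level was far lower, with Mmp14 at 15.2 ± 3.12 TPM and Lgals1 at 15 ± 4.42 TPM, and these neighbours overlapped. Only 11 of the 36 genes reached 1 TPM in any given WT library, and 5 to 12 were listed at 0. The 5 fibrillar collagen genes together summed to 0.0700, 0.160 and 0.330 TPM in WT1, WT2 and WT3, and to 1.03, 2.04 and 0.630 TPM in KO1, KO2 and KO3.

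The sum of all 36 genes was 748 to 843 TPM in WT and 729 to 1061 TPM in KO, ranges that overlapped. It was 4703 to 4899 TPM in GFP and 2557 to 2572 TPM in OE. In GFP the order of levels was led by Lgals1 at 1481 ± 39.1 TPM, Fn1 at 1351 ± 52.4 TPM and Vim at 1115 ± 22.6 TPM, and in OE by Vim at 1039 ± 28.2 TPM and Lgals3 at 483 ± 18.7 TPM. Fibrillar collagens stayed low there too, at a sum of 0.860 to 1.55 TPM in GFP and 1.85 to 3.71 TPM in OE.

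**Figure D1:**
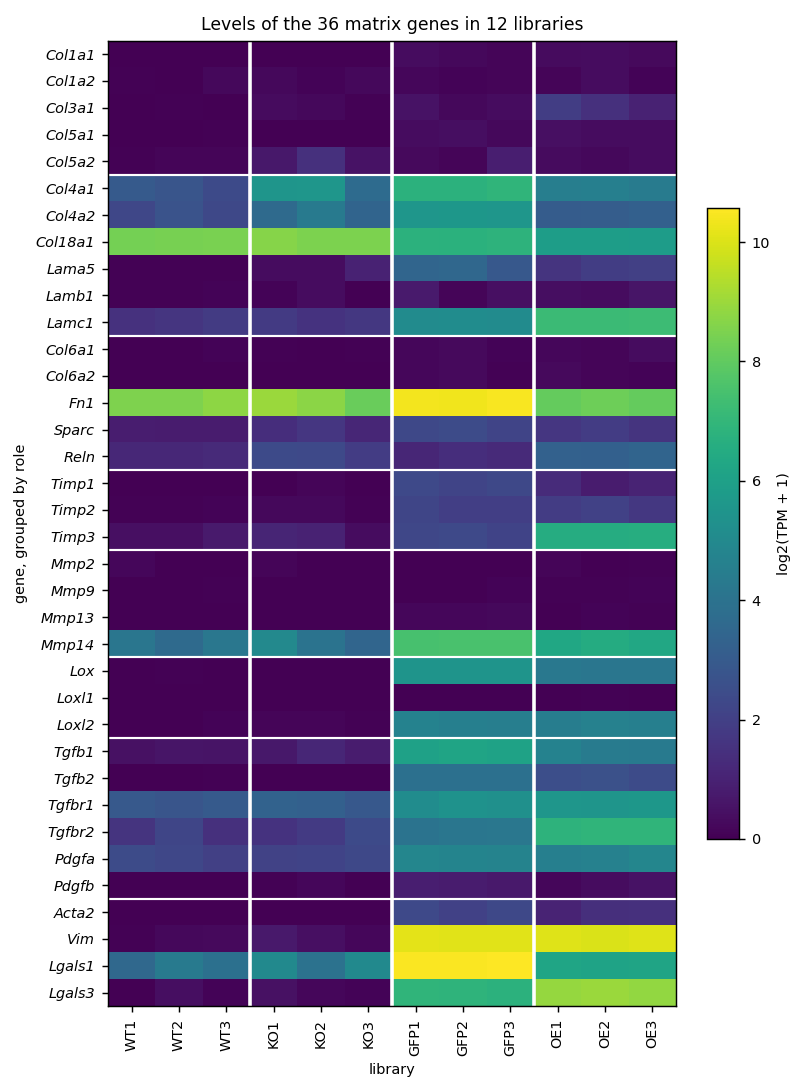
Levels of the 36 genes (rows, grouped by role between white lines) in each of the 12 libraries (columns), as log2(TPM + 1) in color. Fn1 and Col18a1 are the high rows of WT and KO, Lgals1, Fn1 and Vim are the highest rows of GFP, Vim, Lgals3 and Fn1 are the highest rows of OE, and the fibrillar collagens are dark throughout.

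Several of these genes changed together, so their promoters were read. RefSeq windows (GRCm38.p6, the assembly of mm10) were given for 25 of the 36 genes, 29 windows in all, and the 250 bases before each start were searched on both strands. Col4a1 and Col4a2, a pair of genes that lie head to head and encode the chains of the main basement membrane collagen, have annotated transcripts that overlap by 22 bases, so that each window lies within annotated exons of the pair and is not printed. The windows of Reln and Tgfbr2, which were higher in OE than in GFP, and of Tgfb1 and Mmp14, which were lower, are shown as examples of called genes in each direction whose windows hold no annotated exon. Capitals mark a GC box (GGGCGG, or its complement CCGCCC) or a CCAAT box (CCAAT, or its complement ATTGG), and each sequence ends 1 base before the RefSeq start. The Reln window is chr5:22344706-22344955, minus strand, that of Tgfbr2 is chr9:116175364-116175613, minus strand, that of Tgfb1 is chr7:25686752-25687001, plus strand, and that of Mmp14 is chr14:54431348-54431597, plus strand.
Reln: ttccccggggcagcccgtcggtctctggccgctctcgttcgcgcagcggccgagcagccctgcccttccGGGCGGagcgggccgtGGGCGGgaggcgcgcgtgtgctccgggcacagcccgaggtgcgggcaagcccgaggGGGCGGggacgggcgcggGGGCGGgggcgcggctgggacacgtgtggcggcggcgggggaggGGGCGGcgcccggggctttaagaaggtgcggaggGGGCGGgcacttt
Tgfbr2: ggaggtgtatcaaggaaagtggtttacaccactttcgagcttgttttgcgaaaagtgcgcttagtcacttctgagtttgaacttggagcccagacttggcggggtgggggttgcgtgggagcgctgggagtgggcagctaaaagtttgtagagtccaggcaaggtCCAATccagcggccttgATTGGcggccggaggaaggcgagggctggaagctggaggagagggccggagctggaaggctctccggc
Tgfb1: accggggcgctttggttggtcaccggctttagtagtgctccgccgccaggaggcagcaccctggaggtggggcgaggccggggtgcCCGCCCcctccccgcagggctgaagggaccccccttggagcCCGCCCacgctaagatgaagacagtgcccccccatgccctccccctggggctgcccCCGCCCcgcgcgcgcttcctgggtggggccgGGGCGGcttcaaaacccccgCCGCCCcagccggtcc
Mmp14: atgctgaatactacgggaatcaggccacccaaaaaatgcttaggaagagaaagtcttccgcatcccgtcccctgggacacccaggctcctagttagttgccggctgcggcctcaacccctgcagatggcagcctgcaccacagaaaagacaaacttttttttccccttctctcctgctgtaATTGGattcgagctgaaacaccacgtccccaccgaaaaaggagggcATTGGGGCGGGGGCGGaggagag

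Reln had 6 GC boxes, Tgfb1 had 5 and no CCAAT box, Tgfbr2 had 2 CCAAT boxes and no GC box, and Mmp14 had 2 of each. The C/EBP half-site TGCAAT was in 0 of the 29 windows and in 7.32% of the 32851 windows of all genes, which says only that these letters are not in the 250 bases searched. A GC box was in 18 of the 29 windows and in 32.7% of all windows, and a CCAAT box was in 13 and in 33.8%. The AP-1 motif TGANTCA was in 2 windows and 6.75% of all, the TEAD motif GGAATG in 5 and 12.6%, and the TATA box TATAAA in 4 and 12.4%. In Mmp14 a CCAAT box and a GC box share 1 base and the second GC box follows directly, so that their capitals run together.

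KO was compared with WT to ask which matrix genes differ when hepatocytes lack Cebpa. Within each experiment levels are given as CPM, counts scaled to depth by the factors of that experiment, and were tested with edgeR's quasi-likelihood test, in which p values were adjusted by Benjamini-Hochberg across every gene of the fit. Of the 36 genes, 16 had enough counts to be tested, of which 2 rose and 0 fell at an adjusted p under 0.05, Col4a1 and Reln. In this comparison 1.71% of all genes tested were called, with 0.692% higher and 1.02% lower, and limma on log2(TPM + 1) moved the share of calls that were higher from 40.4% to 28.6%. By edgeR, 7 of the 16 were at an unadjusted p under 0.05, as were 13.9% of all genes tested. DESeq2 called 5 higher and 0 lower, which added Col4a2, Col5a2 and Sparc, while a stricter filter on low counts left 1 call and limma on TPM made 0. The groups did not overlap for 8 of the 16 genes, all higher in KO, while of all genes tested 9.66% were higher and 10.4% lower in KO without overlap. Both the 8 and the 7 include Lama5, with 7, 5 and 6 counts in the WT libraries, and Col5a2, with 3, 14 and 12. These genes passed the filter on low counts through KO, which favoured a higher level in KO.

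Col4a1 (ENSMUSG00000031502.11, chr8:11198423-11312826, minus strand, mm10), the alpha 1 chain of collagen IV, was 14.8, 26.6 and 17.8 CPM in WT1, WT2 and WT3 and 115, 148 and 51.6 CPM in KO1, KO2 and KO3. KO1 and KO2 were high, KO3 was lower, and all lay above WT. Col4a1 thus rose 5.31-fold (log2 fold change 2.41 ± 0.41, adjusted p = 0.0387; the value after ± is the standard error here and below). Its partner Col4a2 (ENSMUSG00000031503.13, chr8:11312805-11449287, plus strand) had 16.8, 26.3 and 17.3 CPM in the WT libraries, against 54.1, 89.9 and 44.6 CPM in the KO libraries. These groups did not overlap either, but Col4a2 was just beyond the threshold (log2 fold change 1.64 ± 0.30, adjusted p = 0.0503).

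Reln (ENSMUSG00000042453.14, chr5:21884454-22344702, minus strand), a large secreted glycoprotein that is made by stellate cells among other cells, had 3.76, 3.61 and 5.73 CPM in the WT libraries, against 15.6, 15.3 and 10.4 CPM in the KO libraries. All KO libraries were above all WT libraries, and Reln rose 3.15-fold (log2 fold change 1.65 ± 0.24, adjusted p = 0.0270). Both calls depended on single libraries. Without WT1, WT2, WT3, KO1 or KO2 the adjusted p of Col4a1 was 0.185, 0.103, 0.150, 0.0967 or 0.0890, and without KO3 it was 0.00711. For Reln it was 0.135, 0.112, 0.0745 or 0.0776 without WT1, WT2, KO1 or KO2, and 0.0374 or 0.0149 without WT3 or KO3. Col4a2 passed without KO3, at 0.0279, and not without any other single library.

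Among the other basement membrane genes, Col18a1 had 1098, 1204 and 1185 CPM in the WT libraries, against 1441, 1295 and 1211 CPM in the KO libraries, a log2 difference of 0.18 ± 0.12 with an adjusted p of 0.527. Lama5, the alpha 5 chain of laminins, had 0.321, 0.215 and 0.257 CPM in the WT libraries, against 0.722, 0.566 and 1.11 CPM in the KO libraries (log2 fold change 1.59 ± 0.42, adjusted p = 0.142). Lama5 was near the floor of detection in WT, where its counts summed to 18 over 3 libraries, and neither gene passed the test. Lamc1, the gamma 1 chain shared by most laminins, had 9.25, 9.37 and 9.33 CPM in the WT libraries, against 11.9, 7.97 and 9.98 CPM in the KO libraries, with overlapping groups.

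Sparc, a collagen-binding glycoprotein, had 0.5495, 1.16 and 1.07 CPM in the WT libraries, against 2.55, 3.45 and 1.81 CPM in the KO libraries (log2 fold change 1.47 ± 0.38, adjusted p = 0.135). Col5a2, a chain of the fibrillar collagen V, had 0.137, 0.602 and 0.514 CPM in the WT libraries, against 1.88, 8.95 and 1.93 CPM in the KO libraries (log2 fold change 3.31 ± 0.81, adjusted p = 0.121), and its mean in KO rested mostly on KO2. Fn1 had 1549, 1693 and 1885 CPM in WT, whereas KO libraries had 2350, 1954 and 1285 CPM, and KO lay on both sides of WT (log2 fold change 0.12 ± 0.22). Sparc and Col5a2 were higher in every KO library but did not pass by edgeR.

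Of the signals, Tgfb1, the main fibrogenic cytokine, had 0.5495, 0.774 and 0.685 CPM in the WT libraries, against 0.915, 1.85 and 0.862 CPM in the KO libraries (log2 fold change 0.84 ± 0.40, adjusted p = 0.4098). Its receptor gene Tgfbr2 had 6.87, 13.3 and 6.63 CPM in the WT libraries, against 8.04, 9.1 and 15.2 CPM in the KO libraries, with overlap. The other tested genes, Timp3, Mmp14, Tgfbr1, Pdgfa and Lgals1, had log2 fold changes of -0.04 to 0.83 and adjusted p values of 0.344 to 0.936. The 20 genes that were not tested all had a mean under 1 CPM in both groups, and Acta2, the smooth muscle actin that marks myofibroblasts, had 0 counts in all 6 libraries, which allows up to 3 counts, or 0.0438 CPM, over the WT group.

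Markers of other liver cells were summed in the same libraries. The summed TPM of 15 endothelial markers was 13.1, 19.0 and 25.8 in WT1, WT2 and WT3 and 35.1, 36.6 and 18.5 in KO1, KO2 and KO3. That of 13 macrophage markers was 3.58, 5.93 and 24.8 TPM in WT and 39.7, 43.2 and 14.5 TPM in KO, and that of 15 stellate and fibroblast markers was 1.78, 1.66 and 5.58 TPM in WT and 7.59, 7.33 and 4.57 TPM in KO. KO1 and KO2 had higher sums than the WT libraries, whereas KO3 was within the WT range for all 3 sums. For Col4a1 and Reln, KO3 was the lowest KO library and lay above all WT libraries. By edgeR 0 of 15 endothelial, 0 of 10 macrophage and 0 of 6 stellate markers tested passed, with 3 of each at an unadjusted p under 0.05. Of all genes tested 1.71% passed and 13.9% were at an unadjusted p under 0.05. The log2 fold changes were -0.47 to 2.04 for the endothelial, 1.33 to 2.69 for the macrophage and 0.95 to 1.36 for the stellate markers tested. Estimates were thus positive for every macrophage and stellate marker tested, though none passed. The sum of 8 cholangiocyte markers was 13.4 to 13.5 TPM in WT and 22.9 to 29.4 TPM in KO, and of the 2 tested Sox9 was called higher, at a mean of 3.07 and 12.03 TPM. The part of all these markers in the difference of Col4a1 and Reln was not tested. In bulk RNA more cells of a type and more RNA per cell cannot be told apart.

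**Figure D2:**
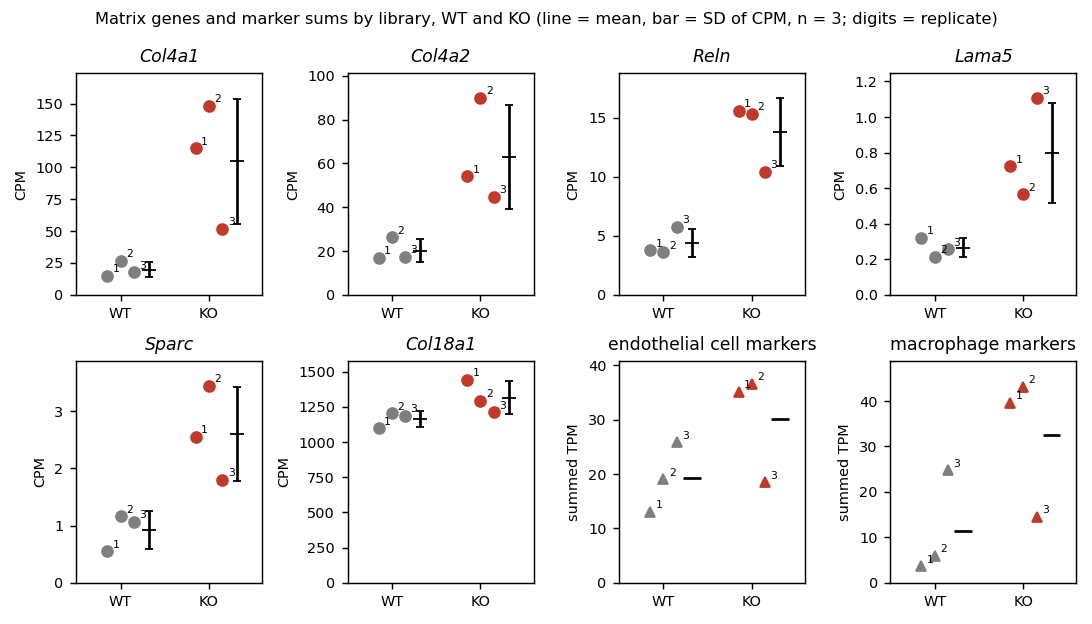
Levels in each WT and KO library of 6 matrix genes (CPM, circles, with mean and SD, n = 3) and of the summed markers of endothelial cells and macrophages (TPM, triangles, with the mean), where digits give the replicate. Col4a1 is 51.6 to 148 CPM in KO and 14.8 to 26.6 CPM in WT, and KO3 is the lowest KO library for Col4a1, Col4a2, Reln and both marker sums.

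The wider matrix was read from 6 lists of related genes. In KO against WT, 1 of 18 tested genes for other collagens and matrix proteins rose, which was Emilin1, a glycoprotein of elastic fibers, from a mean of 1.01 to 2.97 CPM (a log2 fold change of 1.55, adjusted p = 0.0470). Of 12 tested matrix receptors Ddr1, a collagen-binding receptor tyrosine kinase, rose from a mean of 0.0581 to 3.13 CPM (a log2 fold change of 5.62, adjusted p = 0.00505). Of 9 tested other proteases and inhibitors Reck, a membrane-anchored inhibitor of metalloproteinases, fell from a mean of 0.7903 to 0.0469 CPM (a log2 fold change of -3.93, adjusted p = 0.0115). None of 12 collagen assembly enzymes, 23 TGF-beta pathway components and targets and 1 PDGF gene tested was called by edgeR, with 1, 5 and 1 at an unadjusted p under 0.05. Among all genes tested 1.71% were called and 13.9% were at an unadjusted p under 0.05.

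OE was compared with GFP to ask how the same genes differ when Cebpa is raised, with a control that also received virus. Most genes differed here, 86.6% of those tested, with 43.9% higher and 42.7% lower, and 23.5% higher and 18.5% lower by more than 2-fold. Of the 36 matrix genes 29 were tested, of which 8 rose, 18 fell and 3 were not called, and 7 rose and 14 fell by more than 2-fold. That 26 of 29 were called is close to the share of all genes, so it is the direction and size for each gene that the data describe. The median log2 fold change was -0.71 over the 29 genes and 0.01 over all genes. Other scalings moved the median of all genes to 0.15 with library totals and to 0.27 with TPM in limma, where 63.4% of the genes called were higher instead of 50.7%, while the called matrix genes kept their direction under each.

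The basement membrane genes split. Col4a1 was 378, 365 and 370.2 CPM in GFP1, GFP2 and GFP3 and 68.3, 64.5 and 59.1 CPM in OE1, OE2 and OE3, a fall of 5.79-fold (log2 fold change -2.54 ± 0.04, adjusted p = 6.73e-16). Col4a2 fell from 198, 191 and 197 CPM to 25.3, 26.5 and 24.7 CPM, or 7.65-fold (log2 fold change -2.93 ± 0.04, adjusted p = 3.34e-17). The pair was thus far lower in every OE library. Lama5 fell from 29.3, 28.6 and 28.5 CPM to 6.48, 7.37 and 7.52 CPM (log2 fold change -2.02 ± 0.07, adjusted p = 1.89e-12), and Col18a1 fell from 339, 321 and 334 CPM to 148, 151 and 141 CPM (log2 fold change -1.18 ± 0.03, adjusted p = 1.65e-13). Lamc1 went the other way, from 150, 145 and 151 CPM to 499, 514 and 509 CPM, and rose 3.41-fold (log2 fold change 1.77 ± 0.03, adjusted p = 6.46e-16). Lamb1, a laminin beta chain, was called higher on low levels, a call that limma on TPM without a filter did not make, and was 0.497, 0.423 and 0.462 CPM in GFP and 0.949, 0.899 and 1.598 CPM in OE. Lama5 and Lamc1 thus moved in opposite directions.

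Among the glycoproteins, Fn1 (ENSMUSG00000026193.15, chr1:71585520-71653200, minus strand) fell from 5778, 5449 and 5970 CPM to 909.9, 1006 and 879 CPM, or 6.15-fold (log2 fold change -2.62 ± 0.05, adjusted p = 3.23e-15). Sparc fell from 5.42, 6.02 and 4.67 CPM to 2.56, 2.92 and 2.303 CPM (log2 fold change -1.05 ± 0.16, adjusted p = 1.86e-05). Reln instead rose from 4.77, 5.97 and 7.55 CPM to 29.2, 28.6 and 30.8 CPM, or 4.85-fold (log2 fold change 2.28 ± 0.11, adjusted p = 4.48e-11). Only 2 of the 36 genes were called in KO against WT, so no more could be called in both comparisons. Of these, Reln was higher in KO and higher in OE, and Col4a1 was higher in KO and lower in OE. The call of Reln in KO was lost without WT1, WT2, KO1 or KO2.

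The fibrillar collagens were low in both groups. Col3a1, the chain of collagen III, rose from 0.646, 0.611 and 0.514 CPM to 2.02, 1.797 and 1.88 CPM (log2 fold change 1.68 ± 0.25, adjusted p = 1.91e-05). Col5a1 was 0.596, 0.705 and 1.03 CPM in GFP and 1.61, 1.21 and 1.22 CPM in OE and was called (log2 fold change 0.80 ± 0.29, adjusted p = 0.0172), but the call was lost without GFP1, GFP2 or OE1, with adjusted p values of 0.0799, 0.0599 and 0.0798. Col1a1, of collagen I, was 1.04, 0.705 and 0.411 CPM in GFP and 0.784, 0.854 and 0.611 CPM in OE, and Col5a2 was 0.423 to 0.893 CPM over both groups. Neither passed, and Col1a2 was too low to be tested.

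The 3 TIMP genes did not move together. Timp3 (ENSMUSG00000020044.13, chr10:86300372-86349506, plus strand), the inhibitor that binds to the matrix, rose from 11.9, 12.3 and 9.45 CPM to 231, 227 and 224 CPM, or 20.2-fold (log2 fold change 4.34 ± 0.05, adjusted p = 4.68e-17), the largest rise of the 36 genes by edgeR. Timp1 fell from 1.89, 1.598 and 1.75 CPM to 0.537, 0.2696 and 0.376 CPM (log2 fold change -2.12 ± 0.30, adjusted p = 1.13e-05), on 106 counts over GFP and 27 over OE. Timp2 was lower, at 4.03, 3.76 and 2.77 CPM in GFP and 1.98, 2.29 and 2.21 CPM in OE (log2 fold change -0.71 ± 0.18, adjusted p = 0.00246), a call that limma on TPM did not make. Timp3 was thus the main TIMP transcript of OE, with 92.7 to 95.1 TPM against 0.760 to 1.46 TPM for Timp1 and 2.29 to 3.07 TPM for Timp2.

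Mmp14, the membrane-type metalloproteinase that activates others at the cell surface, was the one of the 4 metalloproteinases among the 36 genes that was tested, and it fell from 289.8, 289.7 and 296 CPM to 98.6, 105 and 97.4 CPM (log2 fold change -1.54 ± 0.03, adjusted p = 8.45e-15). Mmp2, Mmp9 and Mmp13, the gelatinases and a collagenase, were at most 0.308 CPM in GFP and OE and were not tested. Of the lysyl oxidases, Lox fell from 137, 133 and 135 CPM to 43.7, 41.3 and 41.3 CPM (log2 fold change -1.68 ± 0.03, adjusted p = 5.36e-15). Loxl2 fell less, from 88, 76.9 and 77.6 CPM to 50.6, 57.3 and 54.9 CPM (log2 fold change -0.58 ± 0.06, adjusted p = 2.40e-07), and was not called by limma on TPM, and Loxl1 had 3 counts over the 6 libraries.

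The ligands Tgfb1 and Tgfb2 moved apart from the receptor gene Tgfbr2. Tgfb1 (ENSMUSG00000002603.15, chr7:25687002-25705077, plus strand) fell from 88.6, 92.5 and 89.9 CPM to 24.02, 21.7 and 19.97 CPM (log2 fold change -2.04 ± 0.06, adjusted p = 9.40e-14), and Tgfb2, a second ligand, fell from 41.9, 40.9 and 39.8 CPM to 9.95, 9.88 and 9.398 CPM (log2 fold change -2.07 ± 0.06, adjusted p = 2.25e-13). Tgfbr2 (ENSMUSG00000032440.13, chr9:116084293-116175360, minus strand), the type II receptor that binds ligand first, rose from 54.4, 54.6 and 58.6 CPM to 313, 325 and 323 CPM, or 5.73-fold (log2 fold change 2.52 ± 0.04, adjusted p = 1.17e-16). Both were lower and this receptor higher in every OE library, while the third ligand gene Tgfb3, from the list of related genes, rose from 1.74, 1.36 and 1.078 CPM to 9.74, 9.61 and 10.8 CPM. The type I receptor Tgfbr1 was 126, 147 and 138 CPM in GFP and 137, 129 and 134 CPM in OE and was not called (log2 fold change -0.04 ± 0.05, adjusted p = 0.463), while limma on log2(TPM + 1) called it higher at 0.28 and edgeR called it lower at -0.10 without GFP1 (adjusted p = 0.0240) and at -0.43 with a correction for gene length. Pdgfb fell from 1.59, 1.36 and 1.23 CPM to 0.206, 0.359 and 0.564 CPM, and Pdgfa was 26.9, 24.5 and 24.5 CPM in GFP and 19.9, 19.5 and 23.5 CPM in OE, a log2 fold change of -0.27 ± 0.08 that did not pass with library totals.

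The galectins moved in opposite directions. Lgals1 (ENSMUSG00000068220.6, chr15:78926725-78930465, plus strand), which encodes galectin-1, a sugar-binding protein of mesenchymal cells, fell from 622, 601 and 634 CPM to 24.8, 23.2 and 23.7 CPM, or 25.9-fold (log2 fold change -4.69 ± 0.04, adjusted p = 1.41e-18), the largest fall of the 36 genes by edgeR. Lgals3, of galectin-3, rose from 85.2, 80.5 and 79.6 CPM to 273, 279 and 256 CPM (log2 fold change 1.72 ± 0.04, adjusted p = 1.29e-14). Vim, the intermediate filament of mesenchymal cells, fell little, from 1085, 1042 and 1055 CPM to 809, 774 and 795 CPM (log2 fold change -0.42 ± 0.03, adjusted p = 1.44e-08), and was not called in the fit of all 12 libraries. Acta2 was 3.73, 3.76 and 3.8 CPM in GFP and 1.11, 1.26 and 1.18 CPM in OE and fell (log2 fold change -1.67 ± 0.18, adjusted p = 6.53e-07).

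Marker sums beside these changes were 2.88 to 3.88 TPM in GFP and 16.5 to 19.6 TPM in OE for the stellate and fibroblast list, of which 2 of 4 tested genes rose and 0 fell. They were 47.8 to 52.0 TPM and 55.3 to 65.7 TPM for the endothelial list, and 174 to 198 TPM and 189 to 209 TPM for the macrophage list. Without Cd68 the macrophage sum was 1.07 to 1.67 TPM in GFP and 3.86 to 4.66 TPM in OE. The neutrophil list was 0.260 to 1.22 TPM in GFP and 3130 to 3613 TPM in OE with all 4 tested genes of its 10 higher. S100a9 and S100a8 made up most of that sum, Ngp and Ltf had means of 45.0 and 9.83 TPM in OE, and Ly6g and Mpo were at 0 in all 12 libraries. The hepatocyte list summed to 18720 to 19350 TPM in GFP and 10830 to 11140 TPM in OE. Of its 7 tested genes 2 were higher in OE and 5 lower. The cholangiocyte list summed to 25.5 to 26.1 TPM in GFP and 44.5 to 52.3 TPM in OE, with 4 of 8 tested genes higher and 2 lower. Among all genes tested 43.9% were higher and 42.7% lower in OE. The part of these markers in the changes of the matrix genes was not tested.

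**Figure D3:**
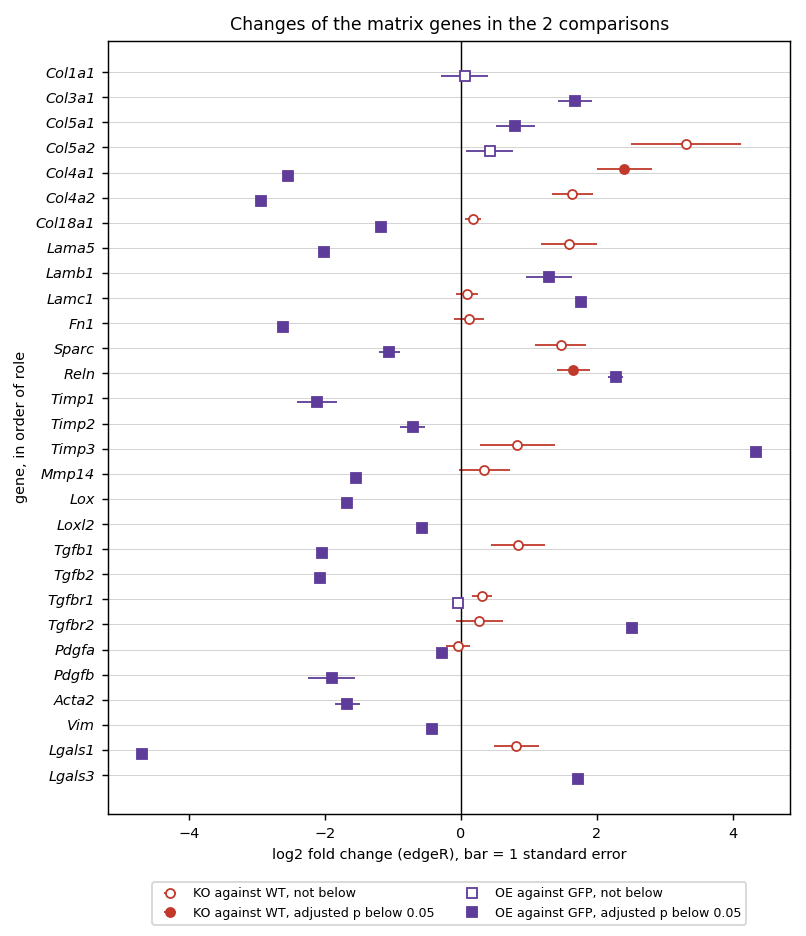
Log2 fold changes by edgeR (horizontal axis, bars of 1 standard error) of the matrix genes tested in KO against WT (red circles) and in OE against GFP (purple squares), filled where the adjusted p is below 0.05. In KO against WT 2 genes are filled, both on the higher side, and in OE against GFP 8 are filled on the higher and 18 on the lower side.

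In the lists of related genes, 10 of 30 tested other collagens and matrix proteins rose in OE and 15 fell. The 3 with the lowest p were Agrn, the proteoglycan agrin, which fell from a mean of 228 to 25.3 CPM (a log2 fold change of -3.17), Vtn, vitronectin of plasma, which fell by 1.11 on the log2 scale, and Col12a1, a fibril-associated collagen, which rose by 1.33. Of 15 collagen assembly enzymes 3 rose and 11 fell, with Plod2, a lysyl hydroxylase, rising from a mean of 8.78 to 354 CPM (a log2 fold change of 5.33) and Bmp1, the procollagen C-proteinase, and Colgalt1, a collagen galactosyltransferase, falling by 2.51 and 1.73 on the log2 scale. Of all genes tested 86.6% were called, 43.9% higher and 42.7% lower, and the share called in these lists was near that. Among the assembly enzymes 5 fell and 2 rose by more than 2-fold, where 18.5% and 23.5% of all genes did. The median log2 fold change of these enzymes was -0.47, and Plod2 had the largest of their 3 rises. Of 21 other proteases and inhibitors 13 rose and 7 fell, led by Adamts5, an aggrecanase, at a log2 fold change of 7.14, Mmp15 at -2.76 and Reck at 3.89.

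Of 28 tested TGF-beta pathway components and targets 17 rose and 7 fell. Ccn2, a matricellular target of TGF-beta and YAP, fell from 926, 989 and 928 CPM to 13.5, 12.7 and 13.4 CPM (log2 fold change -6.17, adjusted p = 6.55e-19). Inhba, a subunit of activin A, fell by 2.87 and Id2, a target of BMP signals, rose by 3.01 on the log2 scale. The ligand Tgfb1 and the target Ccn2 were both lower, while 17 of the 28 genes of the list rose. Of all genes tested 43.9% rose and 42.7% fell. Both PDGF genes tested rose, the receptor Pdgfra from a mean of 0.976 to 18.6 CPM (a log2 fold change of 4.23) and the ligand Pdgfc from 6.71 to 17.1 CPM (1.35). Of 18 matrix receptors 7 rose and 10 fell, led by the proteoglycan Sdc4 at a log2 fold change of 2.95, Ddr1 at -1.58 and the integrin Itgb5 at -1.04.

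The effects of raising and of deleting Cebpa were set against each other in a fit of all 12 libraries, as the log2 fold change of OE against GFP less that of KO against WT. Here 54.1% of all genes tested were called, 25.9% with a positive and 28.1% with a negative difference. Of 28 matrix genes with an estimate 3 were called positive, 13 negative and 12 were not called, and Acta2 had no estimate because its counts were 0 in WT and KO. The fit holds 1 spread for both experiments, 13.9% as a coefficient of variation, which is under the 20.4% of WT and KO alone. The 2 controls differed in Cebpa itself, at a mean of 154 TPM in WT and 31.4 TPM in GFP. Virus, culture and preparation cannot be told apart from Cebpa in these differences. The share of calls that were positive was 47.9%, and 66.7% in limma on log2(TPM + 1) and 38.0% with a correction for gene length, where the median of all genes moved from -0.03 to 0.28 and -0.20.

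Of the 16 genes tested in both experiments, 10 had a positive estimate in KO and a negative one in OE, and 6 had the same sign in both. Only 2 of the 16 estimates in KO passed on their own. Some estimates were near 0, such as Fn1 at 0.12 and Col18a1 at 0.18 in KO and Tgfbr1 at -0.04 in OE. The share of all genes with such signs was not counted, so the 10 cannot be read as a trait of the matrix genes. Among the genes called, the differences furthest below 0 were those of Lgals1 at -5.50 ± 0.37, Col4a1 at -4.91 ± 0.44 and Col4a2 at -4.54 ± 0.32 on the log2 scale, with adjusted p values of 2.53e-07, 2.37e-06 and 3.82e-07. Col4a1 was called in each experiment by itself, in opposite directions. Lama5 at -3.61 ± 0.33, Tgfb1 at -2.84 ± 0.32, Fn1 at -2.72 ± 0.25, Sparc at -2.49 ± 0.39, Mmp14 at -1.86 ± 0.41 and Col18a1 at -1.33 ± 0.11 followed, with adjusted p values of up to 0.00225.

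The 3 positive differences were those of Timp3 at 3.56 ± 0.53, Tgfbr2 at 2.27 ± 0.37 and Lamc1 at 1.69 ± 0.16, genes that rose in OE and were not called in KO. For Reln the difference was 0.65 ± 0.29 with an adjusted p of 0.0813, and it passed without GFP3 at 0.82 (adjusted p = 0.0394), with library totals at 0.82 and in limma at 1.06. Col5a2, Timp2, Loxl2 and Vim were also called negative, at -2.85 ± 1.02, -1.92 ± 0.65, -2.19 ± 0.76 and -2.02 ± 0.69. The last 3 had at most 0.866 CPM in any WT or KO library, and each was lost without WT1, WT2, KO1 or KO2, at adjusted p values of 0.0535 to 0.0847 for Timp2, 0.0671 to 0.0951 for Loxl2 and 0.0530 to 0.122 for Vim. Col5a2 was lost without WT1, WT3, GFP1 or OE2, at 0.0520 to 0.0932, and its difference was -1.74 without KO2. Without WT3 the difference of Loxl2 was -4.03 and that of Vim -3.25, while Lamb1 passed at 2.73 without KO1 and Tgfbr1 at -0.46 without KO3.

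In the same fit, the lists of related genes had 4 positive and 14 negative calls among 31 other collagens and matrix proteins, 2 and 8 among 15 collagen assembly enzymes, 4 and 4 among 16 other proteases and inhibitors, 10 and 5 among 29 TGF-beta pathway genes, 1 and 0 among 2 PDGF genes and 2 and 7 among 17 matrix receptors. Among all genes tested 25.9% had a positive and 28.1% a negative call. The lowest p values were those of Agrn (-3.38), the laminin Lamb2 (-3.77) and Vtn (-1.40) among the matrix proteins and of Colgalt1 (-1.85), Bmp1 (-2.54) and P4hb (-1.40), a subunit of prolyl hydroxylase, among the enzymes, as differences on the log2 scale. For the proteases they were those of Reck (7.90), Mmp15 (-3.60) and Serpinb8 (3.66), and for the receptors those of Ddr1 (-7.23), Sdc4 (2.91) and Itgb5 (-0.89). Id2 (2.73), Bambi (1.97), a decoy receptor, and Inhba (-3.67) led the TGF-beta list, and Pdgfc (0.82) was the PDGF gene called.

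GFP was set against WT because the baseline of these genes differed between the control groups. The virus and any difference in culture or preparation between GFP and WT cannot be told apart. Of all genes tested 83.3% were called, 45.0% higher and 38.4% lower in GFP, and 27.7% higher and 22.6% lower by more than 2-fold. Of the 27 matrix genes tested 24 were higher in GFP, 2 were lower and 1 was not called, with 23 higher and 1 lower by more than 2-fold. The median log2 fold change was 2.67 over these 27 genes and 0.13 over all genes. Col3a1, Col5a1, Lama5, Timp1, Timp2, Lox, Loxl2, Tgfb2, Acta2, Vim, Lgals3 and Pdgfb had under 10 counts in each WT library. They passed the filter through GFP only and so could only come out higher. The counts and the median over the 27 genes include them. With library totals the median of all genes was 1.37, and 83.4% of calls were higher instead of 53.9% (85.8% in limma on TPM), so the size of each change depends on the scale. Of the marker lists, 7 of 7 tested hepatocyte genes were lower in GFP, 5 of 7 cholangiocyte genes were higher and 2 lower, 4 of 15 endothelial genes were higher and 8 lower, 1 of 4 macrophage genes (Cd68, at 185 TPM in GFP) was higher and 3 lower, and 1 of 4 stellate and fibroblast genes (Pdgfra) was higher and 2 lower. Their part in the levels of the matrix genes was not tested. This comparison uses the controls of both experiments, and its values stand beside theirs only as levels.

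Vim, Lgals3 and Acta2 were nearly absent from WT. Vim was 0.0400, 0.16 and 0.22 TPM in WT and 1140, 1095 and 1109 TPM in GFP (log2 fold change 11.33 ± 0.25, adjusted p = 5.08e-09 on the scale of the test). Lgals3 was 0, 0.31 and 0.0700 TPM in WT and 120.4, 116 and 110.2 TPM in GFP (log2 fold change 9.96 ± 0.19, adjusted p = 3.14e-09). Vim rose from the level of a few counts to that of the most abundant matrix genes. Lgals1, already present in WT at 11.1, 19.8 and 14.2 TPM, was 1473, 1447 and 1524 TPM in GFP (log2 fold change 5.18 ± 0.21, adjusted p = 1.09e-07). Acta2 had 0 counts in WT and 229 in GFP, which was at least 34.1-fold higher against a floor of 3 counts over the group, and Timp1 had 0 and 106, at least 15.8-fold higher.

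Lox was 0.0100, 0.0300 and 0.0100 TPM in WT and 43.8, 43.4 and 43.8 TPM in GFP (log2 fold change 9.76 ± 0.12, adjusted p = 1.50e-09), and Loxl2 was 0, 0.0100 and 0.0700 TPM and 25.2, 22.9 and 22.2 TPM (log2 fold change 8.46 ± 0.29, adjusted p = 4.32e-08). Tgfb1 was 0.38, 0.51 and 0.48 TPM in WT and 65.96, 71.4 and 67.2 TPM in GFP (log2 fold change 5.73 ± 0.10, adjusted p = 2.43e-09), and Tgfb2 was at most 0.0400 TPM in WT and 13.9 to 14.1 TPM in GFP. Lox, Loxl2, Tgfb1 and Tgfb2 were thus all under 1 TPM in WT and above 10 TPM in GFP. Such folds rest on few counts in WT, and without WT3 the log2 fold change was 12.6 for Vim, 10.3 for Loxl2, 12.3 for Tgfb2 and 7.47 for Pdgfb. In WT1 and WT2, Vim had 1 and 2 counts and Loxl2 had 0 and 1. Tgfb2 and Pdgfb had 0 in both, so that their fitted values depend on the prior count. Of the basement membrane genes, Col4a1 was 6.88, 6.0 and 4.25 TPM in WT and 109, 109 and 120.2 TPM in GFP (log2 fold change 2.90 ± 0.19, adjusted p = 2.27e-06), Lama5 rose by 5.43 and Lamc1 by 2.67 on the log2 scale, while Col18a1 fell from 324, 336 and 352 TPM to 109.9, 106 and 113 TPM (log2 fold change -3.14 ± 0.07, adjusted p = 6.62e-09). In OE, Col4a1 was 21.8, 22.8 and 20.3 TPM, Tgfb1 was 24.6, 20.2 and 18.7 TPM and Lgals1 was 73.3, 68.7 and 71.8 TPM, which in TPM lay below GFP and above WT for all 3 genes. OE was not tested against WT, and such an order depends on the scale. Col4a2, at a mean of 7.85 TPM in OE and 4.34 TPM in WT, had the same order in TPM. Its log2 fold changes by edgeR were 1.94 in GFP against WT and -2.93 in OE against GFP.

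Fn1 was 367, 366 and 434 TPM in WT and 1356, 1297 and 1401 TPM in GFP, with a log2 fold change of 0.41 ± 0.09 on the scale of the test, and was 269.5, 298 and 269 TPM in OE, below WT. Reln was 1.27, 1.28 and 1.4 TPM in WT and 1.22, 1.63 and 1.41 TPM in GFP, groups that overlapped, and it was called lower by edgeR (log2 fold change -0.85 ± 0.23) but turned to 0.39 with library totals and to 0.06 and 0.09 in limma on TPM, none of which passed. Col3a1 and Col5a1 were called higher from 5 and 6 counts in WT, with 0.42, 0.17 and 0.29 TPM and 0.26, 0.32 and 0.18 TPM in GFP. With 1 library left out, the adjusted p of Col3a1 passed without WT2 and was 0.0534 to 0.0859 otherwise, that of Col5a1 passed without WT3, at a log2 fold change of 3.61, and was 0.0592 to 0.144 otherwise, and Col5a2 passed as lower without WT1 (0.0255).

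**Figure D4:**
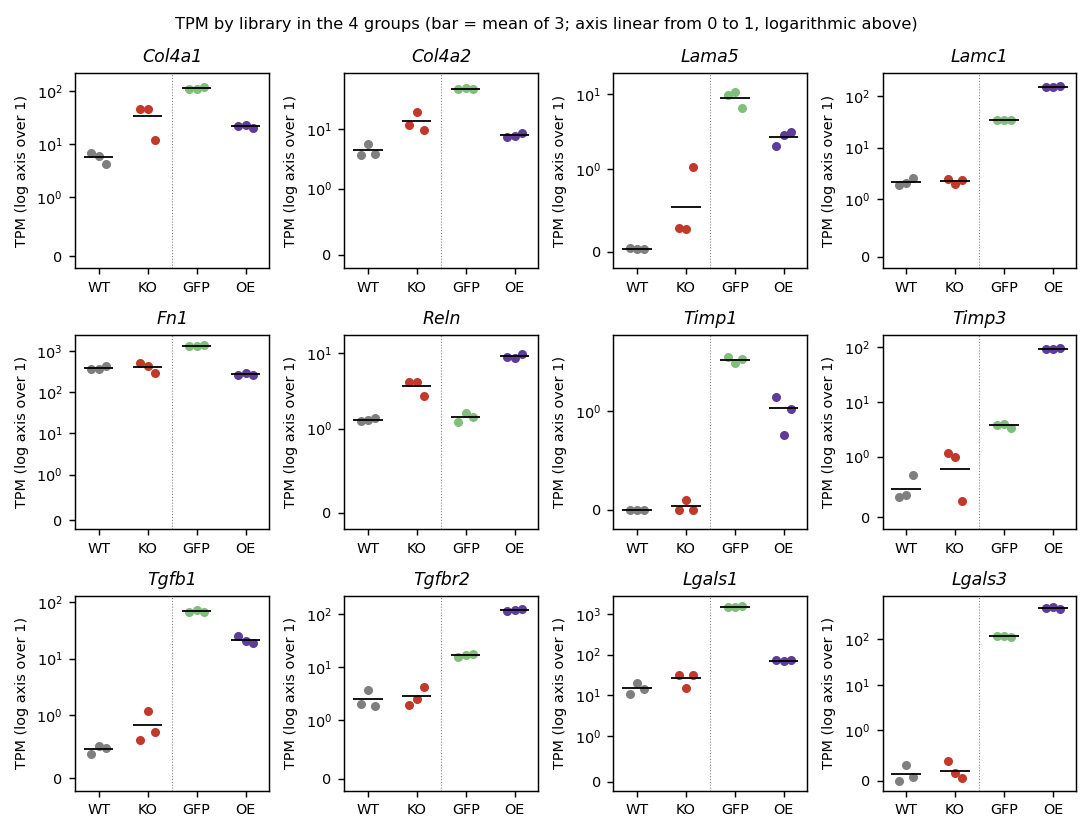
TPM in each library of the 4 groups for 12 matrix genes, with the mean of 3 as a bar, on an axis that is linear from 0 to 1 and logarithmic above. Col4a1, Col4a2, Lama5, Timp1, Tgfb1 and Lgals1 are highest in GFP, Lamc1, Timp3, Tgfbr2, Lgals3 and Reln are highest in OE, and Fn1 in OE (269 to 298 TPM) lies below WT (366 to 434 TPM).

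Of the lists of related genes, 15 of 24 tested other collagens and matrix proteins were higher in GFP and 6 lower, among them Nid1 (log2 fold change 7.98) and Thbs1 (11.61). Of 15 collagen assembly enzymes 9 were higher and 5 lower, led by Loxl4 (3.96), P4hb (-1.73) and Crtap (3.47), and of 17 other proteases and inhibitors 13 were higher and 2 lower, among them Mmp19 (-2.91) and the urokinase receptor Plaur (9.80). Of 26 TGF-beta pathway genes 13 were higher and 9 lower, with Ccn2 at 11.17, Pmepa1 at 5.39 and Id2 at -5.64. Pdgfra was higher (2.37) and Pdgfc lower (-0.52), and of 16 matrix receptors 11 were higher and 4 lower, led by Ddr1 (8.98) and the integrins Itgav (1.51) and Itga6 (3.52). Of all genes tested 45.0% were higher and 38.4% lower. Listed genes near 0 in WT, such as Thbs1 at up to 0.0856 CPM, were tested through GFP and could only come out higher.

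The remaining genes stayed near the floor in every group. Col1a2, Col6a1, Col6a2, Mmp2, Mmp9, Mmp13 and Loxl1 were at most 0.270 TPM in any of the 12 libraries and were tested in none of the comparisons. Loxl1 had 0 counts in all WT and KO libraries, and Mmp13 had 0 counts there and 16 over GFP. Col1a1 had 0 counts in WT, 1 in KO, 44 in GFP and 51 in OE.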

How the data were processed

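Poly(A) RNA was made into stranded libraries. The submitters' processing notes name Trimmomatic 0.36, STAR 2.5.1, Picard 1.84, RSEM 1.2.22 and DESeq2 and the build mm10, with no role for each. The authors deposited 1 table per library from RSEM with expected counts, which are estimated counts per gene that are not scaled to depth, and TPM, which the authors' software scaled for effective length and depth. Whether strand was used in counting is not given in the sources used here. The FPKM column was not used, and no column of another sample was present.

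The members and lists, and the tests, were chosen with earlier results of these data known. After rounding of the expected counts, low genes were removed in edgeR 4.0.16 with filterByExpr, at a minimum of 10 counts and a total of 15. Libraries were scaled by TMM and genes tested by quasi-likelihood F test with Benjamini-Hochberg adjustment over all genes at 0.05, on the 6 libraries of each comparison, or on all 12 for the difference of effects. CPM is on the TMM scale of each experiment. Standard errors are the log2 fold change divided by the root of F. Floors are 3 counts, and cover counting error only, since reads are not independent molecules. Each library held 20160081 to 23304230 counts, and each group 3 libraries. No libraries were duplicates by a chi-square test of counts (chi-square per degree of freedom 2.68 to 128). The main fits did not pair libraries by replicate number, and whether same-numbered libraries share an animal or a preparation is not known.

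Values in every library were given for genes called in KO against WT, for those with the 3 lowest p of each role in OE against GFP and a mean of at least 1 CPM, and for those whose effects differed with at least 1 CPM in any group. The called genes with the 3 lowest p were named from each related list, except for some that are not reported here. Other values were added after they were seen. Coordinates are from GENCODE M21, where all 36 gene identifiers matched, and promoters from RefSeq.

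Alternatives were DESeq2 1.42.0, DESeq2-type size factors, library totals, leaving low genes in, demanding a mean of 5 CPM and 1 CPM in at least 3 libraries, limma 3.58.1 on log2(TPM + 1) or log2(TPM + 0.1) for genes with a mean of 1 TPM or more and without that filter, a fit of all 12 libraries, a correction of a trend with gene length (lowess, span 0.3), the replicate number as a block, and omission of single libraries in turn. The code was tested on simulated data. R 4.3.3, Python 3.11.15 and matplotlib 3.10.9 were used.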

Additional observations from a re-analysis of the deposited data

How the results depend on the processing

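The 2 matrix genes called higher in KO against WT were 5 with DESeq2, 4 with no filter, 1 with the stricter filter, 0 with each of the limma settings (log2(TPM + 1), log2(TPM + 0.1) and log2(TPM + 1) no filter), 6 in the fit of all 12 libraries and 0 to 3 when 1 library was left out, while 0 were lower under each alternative. In OE against GFP the 8 higher were 5 with the stricter filter, which tests fewer genes, and 7 to 8 when 1 library was left out. The 18 lower were 18 to 19 when 1 library was left out. They were 13 with the stricter filter, 14 with limma on log2(TPM + 1) and on log2(TPM + 0.1), and 16 in limma with no filter. The fit of all 12 libraries gave 16 lower, and library totals gave 17. In GFP against WT the 24 higher were 22 to 24 and the 2 lower were 2 to 3 without 1 library. The 24 higher were 17 with the stricter filter, 21 with limma on log2(TPM + 1) and on log2(TPM + 0.1), and 28 in limma with no filter. The 2 lower were 1 with library totals and with each limma setting. For the difference of effects the 3 positive were 5 with limma on log2(TPM + 1) and 3 to 4 without 1 library, and the 13 negative were 9 to 14. Tgfbr1 in OE against GFP, not called at -0.04, was called at 0.28 with limma on log2(TPM + 1), at 0.29 with log2(TPM + 0.1) and at 0.28 with no filter. Reln in GFP against WT turned from -0.85 to 0.39 with library totals, 0.05997 with limma on log2(TPM + 1) with and without the filter and 0.09402 with log2(TPM + 0.1). In the difference of effects Lox turned from 0.05 to -1.29 and -1.22 with limma on log2(TPM + 1) and log2(TPM + 0.1), and Lgals3 from -0.54 to 1.96 with limma on log2(TPM + 1). The cause was not tested for these changes. Lox and Lgals3 had at most 0.337 CPM in any WT or KO library.

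With a replicate block 1 matrix gene was called higher in KO against WT (Col4a2, with Col4a1 at an adjusted p of 0.0531 and Reln at 0.120). The block gave 8 higher and 18 lower in OE against GFP, 23 higher and 2 lower in GFP against WT, and 3 positive and 10 negative differences. Same-numbered libraries did not deviate together (correlations of -0.516 to 0.0692). With 3 libraries per group this cannot show whether they share an animal or a preparation.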
